A study of Mus musculus with 8 samples.

Results

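Ribosome footprints of unedited B16 cells were set against the input RNA of the same kind of cells, to describe which genes carry many or few footprints for the RNA they have. The 4 libraries labelled WT were used of the 8 in the series (2 of footprints and 2 of input), chosen by their labels, and the 4 libraries of Mettl5 KO cells were left out. B16 is a mouse melanoma line that makes pigment. In ribosome profiling, RNA outside ribosomes is digested, and the short stretches that ribosomes shield are sequenced. Footprints on a gene therefore count ribosomes, whereas input reads count the RNA itself, and the ratio of footprints to input is read as ribosome occupancy. Among other things, the ratio is shaped by how often ribosomes start on an mRNA and by how long they take to traverse it. It does not tell these apart. How much of an mRNA is coding was not used, so its part in the ratio was not tested. Known mRNAs with few ribosomes include those with short reading frames ahead of the main one, and those whose start sites are held by RNA-binding proteins.

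The series addresses METTL5, which methylates 18S rRNA. WT and KO B16 cells were grown in DMEM with FBS, pen/strep included, and treated with cycloheximide, which arrests cytosolic ribosomes on mRNA, before lysis. WT cells carried no edited allele per the labels, which do not say whether the 2 libraries of a group came from separate cultures, so p-values here compare libraries whose differences may be technical alone. One label gives the input molecule as polyA RNA and another as an mRNA fraction depleted of rRNA, and which of them holds cannot be read from the table.

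The deposited table listed 10453 genes, all with at least 1 read in each of the 4 libraries, so genes with no read in some library could not enter. Footprint libraries held 3098930 and 2862517 recovered reads, against 14402586 and 11927567 in input libraries. The median gene had 98 and 90 reads in the footprint libraries, against 605 and 504 in input. Under 10 reads were held by 1027 and 1116 genes in the footprint libraries, against 147 and 186 genes in input, so low ratios rest on the fewest reads. Values below are normalized reads, that is reads divided by 1 factor per library, and the log2 ratio is the mean log2(value + 1) of the 2 footprint libraries minus that of the 2 input libraries. A log2 ratio of 0 is the centre of the deposited scaling and not an absolute rate of translation, and gene lengths were not used, so levels are not compared between genes. Calls are limma adjusted p under 0.05, and a 2-fold call also needs a log2 ratio of at least 1 in size.

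Mettl5, the gene edited in the KO cells, had 91.1 and 113 normalized reads in the footprint libraries, against 114 and 111 in the input libraries. The libraries of the 2 kinds overlapped closely, and its log2 ratio was -0.15 ± 0.15 SE (limma adjusted p = 0.395). Without footprint library 2 its log2 ratio was -0.30 (limma adjusted p = 0.015).

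The ratio differed widely between genes, and most genes stood apart from the centre. The log2 ratio had its 5th percentile at -2.63, its 25th at -0.88, its median at -0.0037, its 75th at 0.77 and its 95th at 1.83, a 22-fold difference between the 5th and 95th. Across genes, log2 values of footprints and input correlated with r = 0.774, against 0.985 between the 2 footprint libraries and 0.997 between the 2 input libraries, where genes are not replicates and libraries of a kind share their depth. By limma, 8268 of 10453 genes were called (79.1%), 4123 higher in footprints (39.4%) and 4145 lower (39.7%). At least 2-fold calls covered 1897 genes higher (18.1%) and 2341 lower (22.4%). On recovered reads, edgeR called 39.9% of genes higher and 42.0% lower (17.9% and 23.3% at least 2-fold), and DESeq2 called 35.8% higher and 35.3% lower (17.9% and 21.6% at least 2-fold). Footprint and input libraries did not overlap in 9386 genes (89.8%). With so many genes called, a call by itself sets a gene apart from few others, and the counts of each gene group below are to be read against 18.1% and 22.4%.

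**Figure D1:**
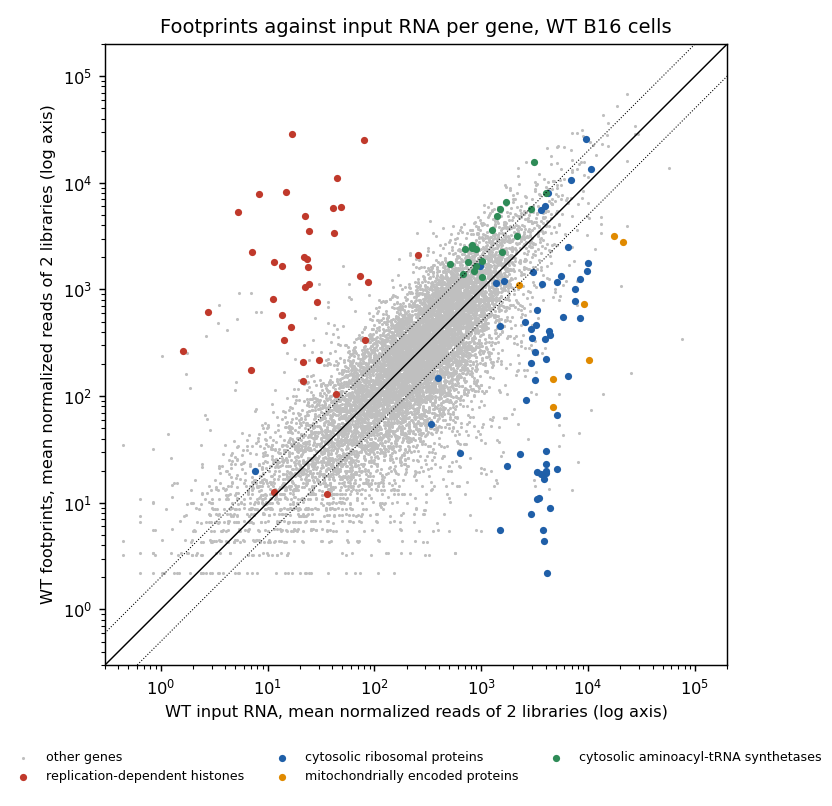
Mean normalized reads of the 2 WT footprint libraries (vertical, log axis) against those of the 2 WT input libraries (horizontal, log axis), 1 point per gene for 10453 genes. The solid line marks equal values and the dotted lines a 2-fold difference; 35 of 37 replication-dependent histones lie above the upper dotted line, and cytosolic ribosomal proteins and mitochondrially encoded genes mostly below, while the 20 aminoacyl-tRNA synthetases all lie above the solid line.

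The pigment programme of the line was present in both kinds of library. All 9 defining melanocytic markers were measured, and the melanosome and pigment genes as a list (23 of 24 measured) took 3.66% and 3.66% of footprint reads, against 2.08% and 2.08% of input reads. Wilson 95% intervals on these shares were 3.64 to 3.68% in both footprint libraries, against 2.07 to 2.09% and 2.08 to 2.09% in input, and they cover counting error only. Markers of other cell types were partly listed. Of 10 leukocyte markers only Cd68 was listed, with 4 and 4 reads in the footprint libraries, against 22 and 15 in input. Of 10 fibroblast markers 5 were listed, with 131 and 119 reads in all in the footprint libraries, against 419 and 345 in input. Most of these footprint reads were of Pdgfrb, a receptor for platelet-derived growth factor, with 74 and 61 in the footprint libraries, against 185 and 157 in input. Of 10 epithelial and endothelial markers 2 were listed, with Cdh1 at 5 and 4 reads in the footprint libraries, against 20 and 20 in input. In bulk libraries such as these, fewer cells of a type and less RNA per cell cannot be told apart.

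Of the 23 pigment genes, 7 were at least 2-fold higher in footprints (30.4%) and 3 at least 2-fold lower (13.0%), with a median log2 ratio of 0.33. Genes at least 2-fold higher included Pmel, Tyr, Dct and Gpnmb, and also Gpr143 at 1.23, Rab38 at 1.13 and Bace2 at 1.13. Pmel, which forms the fibrils on which melanin is laid down, had 43499 and 42665 normalized reads in the footprint libraries, against 13565 and 13838 in the input libraries (log2 ratio 1.65 ± 0.014 SE, limma adjusted p = 2.8e-10). Its span overlaps other coding genes, so some reads could belong to a neighbour. Tyr, the tyrosinase that starts melanin synthesis, had 3948 and 4065 in the footprint libraries, against 1352 and 1342 in input (log2 ratio 1.57 ± 0.029 SE, limma adjusted p = 6.9e-09). Footprints exceeded input in both, with no overlap between kinds of library. Dct, which acts after tyrosinase on dopachrome, and Gpnmb, a melanosomal glycoprotein, gave log2 ratios of 1.49 ± 0.011 and 1.55 ± 0.0077 SE (limma adjusted p = 2.4e-10 and 8.7e-11). Tyrp1 and Mlana were only a little above the typical gene, at 0.33 and 0.29.

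The 3 pigment genes at least 2-fold lower were Mc1r, Trpm1 and Myo5a. Mc1r, the receptor for melanocyte-stimulating hormone, had 78.4 and 101 normalized reads in the footprint libraries, against 786 and 816 in the input libraries (log2 ratio -3.15 ± 0.13 SE, limma adjusted p = 3.3e-07). Footprints were far below input in both libraries. The channel gene Trpm1 and Myo5a, the motor that moves melanosomes along actin, were the other two, at -1.81 and -1.69. The lineage transcription factors stayed near the centre, Mitf at -0.26 ± 0.03 SE, Sox10 at 0.18 ± 0.024 SE and Pax3 at 0.05 ± 0.039 SE, with Mitf and Sox10 called and Pax3 not (limma adjusted p = 0.27).

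Replication-dependent histones had the highest median of the lists. These genes encode the core and linker histones made during DNA replication, and their mRNAs end in a stem-loop in place of a poly(A) tail. Of 92 listed, 37 were measured, and 35 of the 37 were at least 2-fold higher in footprints (94.6%), with 1 at least 2-fold lower and a median log2 ratio of 6.05. As a list they took 2.01% and 2.02% of footprint reads, against 0.0215% and 0.0220% of input reads. Hist2h2bb had 28720.2 and 28103 normalized reads in the footprint libraries, against 14.0 and 19.8 in the input libraries (log2 ratio 10.65 ± 0.14 SE, limma adjusted p = 1.3e-09). The input values rest on 35 and 41 reads, and an exact counting interval of the log2 ratio was 10.42 to 11.09. Hist3h2a had 5366 and 5329 in footprints, against 5.19 and 5.31 in input (log2 ratio 9.74 ± 0.10 SE, limma adjusted p = 4.6e-10). In both genes the footprint libraries were far above the input libraries. The whole span of Hist3h2a lies within another coding gene, so its reads could belong to that gene. Hist1h2bg and Hist1h2bh lay lower within the list, at 2.02 and 2.82, and the only member called lower, Hist1h4i, had a log2 ratio of -1.54. Histone genes are near-identical copies of each other, so reads may have been shared out between them and the value of a single gene is uncertain, while the sum over the list is less so.

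Histones made outside replication, whose mRNAs are polyadenylated, did not share this. Of the 7 measured, 1 was at least 2-fold higher and 3 at least 2-fold lower, with a median log2 ratio of 0.15. H3f3b, which encodes histone H3.3, had 299 and 262 normalized reads in the footprint libraries, against 2559 and 2622 in the input libraries (log2 ratio -3.21 ± 0.067 SE, limma adjusted p = 1.3e-08). Cenpa, the centromeric H3, and H2afj were also lower, at -2.40 and -1.68. H2afx, the histone phosphorylated at DNA breaks, had 1123 and 1021 in footprints, against 383 and 374 in input (log2 ratio 1.5 ± 0.062 SE, limma adjusted p = 4.3e-07). The mRNA of H2afx is known to end in either way. H2afv was called at 0.74, and H2afy and H1f0 lay close to the centre, at 0.15 and 0.25, with calls that were lost without input library 2, at 0.12 and 0.20 (limma adjusted p = 0.136 and 0.109). The labels differ on whether input was polyadenylated RNA, and whether any such selection played a part in the histone ratios was not tested.

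Cytosolic enzymes that charge tRNAs were on the high side. All 20 cytosolic aminoacyl-tRNA synthetases were measured and all 20 were called higher in footprints by limma, against 39.4% of all genes. At least 2-fold higher were 12 of them (60.0%, against 18.1% of all genes), with a median log2 ratio of 1.35 and a range of 0.36 to 2.33. Gars, the glycyl-tRNA synthetase, had 15942 and 15431 normalized reads in the footprint libraries, against 3128 and 3088 in the input libraries (log2 ratio 2.33 ± 0.021 SE, limma adjusted p = 3.1e-10). Aars, for alanine, had 6549 and 6552 in footprints, against 1689 and 1721 in input (log2 ratio 1.94 ± 0.023 SE, limma adjusted p = 1.1e-09). Footprints stood well above input in both. The lowest 2 were Wars, for tryptophan, at 0.36 ± 0.041 SE and Kars, for lysine, at 0.50 ± 0.038 SE (limma adjusted p = 0.00011 and 1.0e-05).

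Proteins of the secretory and endolysosomal route were high as well. ER chaperones and disulfide isomerases, which fold proteins entering the secretory pathway, had 15 of 24 members at least 2-fold higher (62.5%), 1 lower and a median log2 ratio of 1.32. They took 2.64% and 2.65% of footprint reads, against 0.990% and 0.987% of input reads. Pdia3 had 15764 and 15658 normalized reads in the footprint libraries, against 2647 and 2609 in the input libraries (log2 ratio 2.58 ± 0.018 SE, limma adjusted p = 1.6e-10), and Pdia6 gave 2.53 ± 0.023 SE. Both are disulfide isomerases, and their footprint and input libraries were far apart. At the other end of the list Erp29 had 767 and 759 in footprints, against 738 and 758 in input, so that the libraries lay side by side (log2 ratio 0.03 ± 0.047 SE, limma adjusted p = 0.597), though with libraries scaled to equal sums it was called lower, at -0.16 (limma adjusted p = 0.014).

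Of 35 lysosomal hydrolases, 23 were at least 2-fold higher (65.7%) and 1 lower, with a median log2 ratio of 1.22. Ctsl, the protease cathepsin L, had 3919 and 4028 normalized reads in the footprint libraries, against 535 and 547 in the input libraries (log2 ratio 2.87 ± 0.035 SE, limma adjusted p = 1.2e-09). Lgmn, the protease legumain, gave 2.67 ± 0.054 SE. Ids, which removes sulfate from glycosaminoglycans, was the only hydrolase called lower, with 65.7 and 66.7 in footprints, against 178 and 182 in input (log2 ratio -1.43 ± 0.13 SE, limma adjusted p = 2.6e-05). Subunits of the V-ATPase, the pump that acidifies lysosomes and melanosomes, had a median of 0.85, with 7 of 16 at least 2-fold higher and 2 lower. Within that complex Atp6v0b was at 2.24 and Atp6v1g1 at -5.69, with Atp6v1g1 resting on 7 and 10 footprint reads. Secreted matrix proteins and integrins had 11 of 33 members at least 2-fold higher and 1 lower, with a median of 0.66. Lamb2, a laminin chain, was at 1.70 and Nid1, which links laminin to collagen in basement membranes, at -1.40.

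Nuclear genes for mitochondrial energy production were high with exceptions. Of 72 nuclear-encoded subunits of oxidative phosphorylation, 38 were at least 2-fold higher (52.8%) and 8 at least 2-fold lower (11.1%), with a median log2 ratio of 1.16. Ndufb2, a subunit of complex I, had 1609 and 1697 normalized reads in the footprint libraries, against 52.7 and 49.7 in the input libraries (log2 ratio 4.99 ± 0.08 SE, limma adjusted p = 3.8e-09). Ndufa1, also of complex I, was at 3.0 ± 0.062 SE. Atp5l, of the ATP synthase, and Cox5b, of cytochrome oxidase, were low, at -5.61 and -3.78, and RefSeq lists pseudogenes named after each. Mitochondrial ribosomal proteins had 22 of 76 members at least 2-fold higher (28.9%) and 11 lower (14.5%), with a median of 0.63 and a range from -3.90 for Mrps33 to 4.20 for Mrps18c.

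The 7 proteins encoded by the mitochondrial genome that were measured went the other way. All 7 were called at least 2-fold lower, with a median log2 ratio of -3.64, and as a list they took 0.125% and 0.124% of footprint reads, against 1.19% and 1.22% of input reads. mt-Nd4 had 84.8 and 73.6 normalized reads in the footprint libraries, against 4611 and 4703 in the input libraries (log2 ratio -5.86 ± 0.074 SE, limma adjusted p = 1.3e-09). mt-Co1, a core subunit of cytochrome oxidase, had 2689.5 and 2823 in footprints, against 20873 and 21573 in input (log2 ratio -2.94 ± 0.027 SE, limma adjusted p = 3.4e-10). Footprints were below input in both by several times. The remaining members were mt-Nd1 at -5.51, mt-Nd2 at -5.01, mt-Nd5 at -3.64, mt-Cytb at -2.47 and mt-Nd6, the only one of them encoded on the light strand, at -1.04. These mRNAs are made inside mitochondria and read there by mitochondrial ribosomes.

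Protein degradation, DNA replication and protein folding lists also leaned high. Proteasome subunits had 15 of 32 members at least 2-fold higher (46.9%) and 3 lower, with a median of 0.95. Psmd6 and Psmd12, of the regulatory particle, were at 2.49 and 2.20, whereas Psma5 and Psmb5, of the core particle, were at -2.85 and -1.99 and each have a named pseudogene. DNA replication genes had 19 of 42 at least 2-fold higher (45.2%) and 0 at least 2-fold lower by limma (also 0 by edgeR and 0 at an unadjusted p under 0.05), with a median of 0.92. Rfc4, of the clamp loader, had 1611 and 1614 normalized reads in the footprint libraries, against 269 and 279 in the input libraries (log2 ratio 2.56 ± 0.051 SE, limma adjusted p = 1.0e-08). Another clamp loader subunit, Rfc5, was lower in footprints, with 509 and 458 against 860.3 and 862 in input (log2 ratio -0.83 ± 0.064 SE, limma adjusted p = 1.2e-05). Of the GINS complex, part of the replicative helicase, Gins4 was at 2.27 and Gins3 at -0.89. Genes of G2 and mitosis, in contrast, centred on the typical gene, with 2 of 30 at least 2-fold higher, 2 lower and a median of 0.01. Their lowest member was the proliferation antigen Mki67, with 1185 and 1235 in footprints, against 7934 and 7835 in input (log2 ratio -2.70 ± 0.028 SE, limma adjusted p = 6.3e-10). No test of the difference between these lists was made.

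Cytosolic chaperones lay on both sides. Of 26, 10 were at least 2-fold higher and 6 lower, with a median of 0.78. Cct8 and Cct2, of the ring that folds actin and tubulin, were at 1.99 ± 0.015 and 1.80 ± 0.017 SE. Hspa8, the constitutive HSP70, had 1140.2 and 1018 normalized reads in the footprint libraries, against 20614 and 20330.5 in the input libraries (log2 ratio -4.25 ± 0.048 SE, limma adjusted p = 8.0e-10). Its footprints were low in both libraries, and no pseudogene in RefSeq carries its name, though pseudogenes under other names were not counted.

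Outside the replication-dependent histones and mitochondrial genes, the 15 highest ratios among coding genes with a mean of at least 100 normalized reads over the 4 libraries ran from 4.23 to 7.31. All 15 have under 100 in input and reached that mean through footprints, where they are high, so the limit itself favours high ratios, and they are a description only. None of the 15 has a named pseudogene, 4 overlap another coding gene, and their input rested on 1 to 134 reads per library. Gemin4, of the complex that assembles spliceosomal snRNPs, had 693 and 729 normalized reads in the footprint libraries, against 3.59 and 3.38 in the input libraries (log2 ratio 7.31 ± 0.18 SE, limma adjusted p = 2.7e-08). Input reads were 9 and 7, and the exact counting interval of the log2 ratio was 6.96 to 8.48. Vps25, of the ESCRT-II complex that sorts membrane proteins into endosomes, had 428 and 418 reads in the footprint libraries, against 14 and 11 in input (log2 ratio 7.18, counting interval 6.84 to 8.05). Footprints stood far above input in both, and the size of the ratio is limited by the few input reads. The ferredoxin gene Fdx1l had 122 and 96 reads in footprints, against 4 and 1 in input, with a counting interval of 6.54 to 9.42. Ccdc22, Phpt1, Scamp4 and Etfb overlap another coding gene, so their reads may belong to a neighbour. The others were Ing4 at 6.46, Vkorc1, which recycles vitamin K, at 6.32, the transporter Abcb6 at 6.14 and Hypk at 5.98.

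Of the 15, those with more input reads included Ddit4 and Trib3. Ddit4, an inhibitor of mTORC1, had 1100.0 and 1145 normalized reads in the footprint libraries, against 53.5 and 61.8 in the input libraries (log2 ratio 4.26 ± 0.10 SE, limma adjusted p = 2.2e-08). Trib3, a pseudokinase, had 771 and 761 in footprints, against 38.3 and 35.2 in input (log2 ratio 4.35 ± 0.11 SE, limma adjusted p = 2.7e-08). Both rest on 73 to 134 input reads per library, and footprints were above input in each. Slc39a7, which releases zinc from the ER, was at 5.18 and Ndufb2 is given above. Among genes with neither a named pseudogene nor an overlapping gene, a set formed after the values were seen, the next were Mrps18c, Commd4, Adnp and Dad1, a subunit of the ER oligosaccharyltransferase. Dad1 had 4444 and 4375 normalized reads in footprints, against 335 and 327 in input (log2 ratio 3.73 ± 0.038 SE, limma adjusted p = 5.1e-10), on 840 and 678 input reads.

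Cytosolic ribosomal proteins had the lowest median of the lists apart from the mitochondrially encoded genes. Of 82 listed, 59 were measured, and 49 of these were at least 2-fold lower (83.1%) and 2 at least 2-fold higher (3.39%), with a median log2 ratio of -3.41. As a list they took 1.45% and 1.42% of footprint reads, against 4.29% and 4.24% of input reads. Rpl13, of the large subunit, had 1 and 1 read in the footprint libraries, against 10383 and 8565 reads in the input libraries. Its fitted log2 ratio was -10.33 ± 0.12 SE (limma adjusted p = 1.1e-09), and with so few footprint reads the exact counting interval was -13.92 to -9.02. Rpl8, also of the large subunit, had 25912 and 26059 normalized reads in the footprint libraries, against 9541 and 9499 in the input libraries (log2 ratio 1.45 ± 0.012 SE, limma adjusted p = 2.5e-10). Rpl13 and Rpl8 belong to the same particle and were on opposite sides of the typical gene. Rpl36al, the other member at least 2-fold higher, rests on 26 and 10 input reads.

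The spread within the list went with the number of pseudogenes. Ribosomal protein genes have left many processed pseudogenes, and how reads that match several places were treated is not given in the sources used here. RefSeq lists at least 1 pseudogene named after 44 of the 59 genes. The 15 without one had a median log2 ratio of -0.46, with 7 at least 2-fold lower and 2 higher. The 13 with exactly 1 had a median of -3.07, with 12 at least 2-fold lower, and the 31 with 2 or more had a median of -4.45, with 30 at least 2-fold lower. Exceptions were found on both sides. Rps19, after which 13 pseudogenes are named, had 5534 and 5476 normalized reads in the footprint libraries, against 3655 and 3642 in the input libraries (log2 ratio 0.59 ± 0.02 SE, limma adjusted p = 1.4e-07). Rpl11 and Rpl23 have no pseudogene of their name and were low all the same. Rpl11 had 3 and 4 reads in the footprint libraries, against 7455 and 5941 in input (log2 ratio -8.40), and Rpl23 had 9 and 9 in footprints, against 10218 and 8214 in input (log2 ratio -7.59). Many mouse pseudogenes carry a systematic name that does not mention their parent, so the count of named copies is too low, and single ribosomal protein values are uncertain.

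Low medians were also seen in other genes with named pseudogenes, though not in step with their number. Over all genes, those with 0 named pseudogenes (10201) had a median log2 ratio of 0.017, those with 1 (171) -1.43, those with 2 (36) -1.76 and those with 3 or more (45) -4.45. Without the ribosomal proteins these medians were 0.017, -1.26, -0.055 and -3.94. Of the 347 genes at least 8-fold lower, 89 have a named pseudogene (25.6%), against 2.41% of all genes, and 94 had under 10 footprint reads over both libraries. These medians describe the genes and were not tested, and the part of shared reads in the low ratios was not tested.

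**Figure D2:**
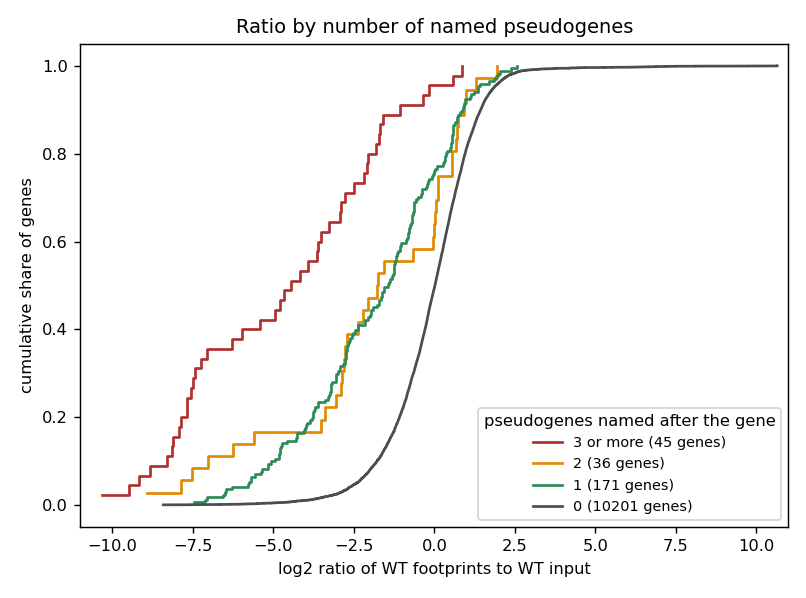
Cumulative share of genes (vertical, from 0 to 1) by log2 ratio of WT footprints to WT input (horizontal), 1 line per number of pseudogenes that RefSeq names after the gene. The line of genes with 3 or more lies farthest left, with a median of -4.45, and that of genes with 0 is centred at 0.017.

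Ribosomal protein and elongation factor mRNAs are known as TOP mRNAs, since they begin with a C and a run of pyrimidines that lets mTORC1 signalling set their translation. The start sites that RefSeq annotates were searched for a C followed by at least 4 pyrimidines (C or T), on the gene's strand. A choice of those found is shown because these genes share this start and span the range of ratios, 10 bases ahead of the annotated start and 20 from it, in build GRCm38.p6 from RefSeq, with the pyrimidine run at the start in capitals.
Rack1 (chr11:48800350-48800379, plus strand): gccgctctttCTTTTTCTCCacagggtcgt
Eif3f (chr7:108934405-108934434, plus strand): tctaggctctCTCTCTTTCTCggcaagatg
Nap1l1 (chr10:111473217-111473246, plus strand): gctctcgggtCTTTTTTagcgccatctgct
Rps10 (chr17:27635225-27635254, minus strand): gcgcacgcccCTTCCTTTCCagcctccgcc
Fau (chr19:6057937-6057966, plus strand): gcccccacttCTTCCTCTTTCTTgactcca
Such a start was found for 8 of 46 ribosomal proteins with a start sequence, and for 2.90% of the 8492 genes with one. Annotated starts can miss the true first base, and no match says only that these letters are not at the annotated start.

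Genes with the same start differed widely in ratio. Rack1, a scaffold protein of the small subunit, had 14991 and 15222 normalized reads in the footprint libraries, against 8216 and 8238 in the input libraries (log2 ratio 0.88 ± 0.014 SE, limma adjusted p = 3.9e-09). Fau, which encodes a ubiquitin-like protein joined to the ribosomal protein of the small subunit eS30, had 2 and 3 reads in footprints, against 3790 and 3062 in input (log2 ratio -7.86 ± 0.21 SE, limma adjusted p = 4.0e-08), and has 2 named pseudogenes. The start of Fau has a run of 13 pyrimidines and that of Rack1 a run of 10, and the 2 genes were at opposite ends. Eif3f, with a run of 11, was at 0.46, Nap1l1 at -2.37 and Rps10, with 4 named pseudogenes, at -3.63. Ribosomal proteins with such a start had a median of -3.35, against -3.69 for those without, and other genes with it had a median of -0.19, against 0.0007 for those without. The list of elongation factors and other TOP mRNAs (20 measured) had 1 member at least 2-fold higher and 9 lower, with a median of -0.45. Within it, the intermediate filament gene Vim was at 1.23 ± 0.011 SE and Hnrnpa1 at -7.49 ± 0.07 SE.

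Among the 15 lowest coding genes with that mean, from -10.33 to -7.69, 10 were ribosomal proteins and 12 have a named pseudogene. Of these 15, 14 have under 100 normalized reads in footprints and reached the mean through input. The other 5 were Pgk1 of glycolysis, the adaptor Ywhaz, the peptidyl-prolyl isomerase Ppia, the initiation factor Eif1 and Lars2. Lars2, the mitochondrial leucyl-tRNA synthetase, had 367 and 324 normalized reads in the footprint libraries, against 75343 and 75894 in the input libraries (log2 ratio -7.77 ± 0.051 SE, limma adjusted p = 1.4e-10). It has no named pseudogene, and its 173 and 141 footprint reads are the most among the 15. The low ratio comes with very many input reads, 188817 and 157183 in the 2 libraries. Whether all of these reads come from the Lars2 mRNA was not tested. Gapdh, also of glycolysis, had 146 and 182 in footprints, against 24946 and 25133 in input (log2 ratio -7.25 ± 0.087 SE, limma adjusted p = 1.1e-09), with 3 named pseudogenes. Other glycolytic genes were on the high side, Aldoc at 3.66 and Pfkl at 1.98, and the list had 6 of 17 at least 2-fold higher and 4 lower. Low ratios were also seen in genes without a named pseudogene or an overlapping gene. Among them were Hnrnpa3 at -7.24, Tuba1b at -7.17, Eef1g at -6.60, Phb at -6.68, Capza1 at -6.49 and Pebp1 at -6.36. These rest on 3 to 41 footprint reads per library, and pseudogenes under other names were not counted. Stmn1, Snrpg and Cks2 had between 1 and 4 footprint reads in a library, and their counting intervals were -9.69 to -5.86, -9.71 to -5.88 and -7.64 to -4.79.

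Genes whose translation is known to be controlled by upstream reading frames were mostly low. Of 13 measured, 7 were at least 2-fold lower (53.8%) and 1 higher, with a median log2 ratio of -1.0. Ppp1r15a, the stress-induced subunit that directs dephosphorylation of eIF2 alpha, had 8.48 and 6.90 normalized reads in the footprint libraries, against 93.0 and 89.8 in the input libraries (log2 ratio -3.42 ± 0.25 SE, limma adjusted p = 8.8e-06). Its constitutive counterpart Ppp1r15b had 534 and 513 in footprints, against 1523 and 1513 in input (log2 ratio -1.53 ± 0.045 SE, limma adjusted p = 7.0e-08). Both were below input in each library, the first on only 4 and 3 footprint reads. The transcription factor gene Atf5 had 46.6 and 36.8 in footprints, against 209 and 206 in input (log2 ratio -2.30 ± 0.16 SE, limma adjusted p = 7.5e-06), and the stress factor Ddit3 (CHOP) had 31.8 and 39.1, against 105 and 102 in input (log2 ratio -1.53 ± 0.18 SE, limma adjusted p = 0.00016). Slc35a4 was at -3.52, Uhmk1 at -2.99, Ifrd1 at -1.0, Azin1 at -0.79 and Ibtk at -0.59, all called lower.

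Atf4, whose upstream frames hold back translation until eIF2 alpha is phosphorylated, was close to the typical gene. It had 1026 and 1147 normalized reads in the footprint libraries, against 1278 and 1251 in the input libraries (log2 ratio -0.22 ± 0.057 SE, limma adjusted p = 0.0087), a call that limma without its variance trend did not make (adjusted p = 0.076). The footprint counts include any ribosomes on the upstream frames themselves, which gene totals do not separate. Eprs, the glutamyl-prolyl-tRNA synthetase, had 7944 and 8161 in footprints, against 4019 and 4033 in input (log2 ratio 1.0 ± 0.02 SE, limma adjusted p = 1.2e-08), just under the 2-fold limit. The 1 gene at least 2-fold higher was Gadd45g, on 20 and 12 footprint reads, against 22 and 27 input reads (log2 ratio 1.59 ± 0.35 SE, limma adjusted p = 0.0039). Cebpb was not called, at 0.34 ± 0.23 SE (limma adjusted p = 0.221), though without footprint library 2 it was, at 0.53 (limma adjusted p = 0.0094). Of the 13 genes, Slc35a4, Ppp1r15a, Atf5 and Ddit3 overlap another coding gene, and the median of the 9 others was -0.59.

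The polyamine genes held some of the lowest ratios outside the ribosome. Of 8 measured, 5 were at least 2-fold lower (62.5%) and 0 higher by limma (also 0 by edgeR and 0 at an unadjusted p under 0.05), with a median of -1.32. Odc1, the ornithine decarboxylase that opens polyamine synthesis, had 40.3 and 39.1 normalized reads in the footprint libraries, against 2717 and 2757 in the input libraries (log2 ratio -6.07 ± 0.071 SE, limma adjusted p = 1.0e-09). This rests on 19 and 17 footprint reads, against 6808 and 5710 input reads. Odc1 has neither a named pseudogene nor an overlapping gene, though pseudogenes under other names were not counted. Oaz1, the antizyme that sends Odc1 to the proteasome and whose reading frame ribosomes must shift to complete, had 10.6 and 18.4 in footprints, against 1290.5 and 1359 in input (log2 ratio -6.47 ± 0.23 SE, limma adjusted p = 1.8e-07). Oaz2 had 1 and 1 footprint read, against 364 and 327 input reads, with a counting interval of -9.15 to -4.24. Both antizymes have a named pseudogene, and Oaz1 rests on 5 and 8 footprint reads. The 5 polyamine genes with neither a named pseudogene nor an overlapping gene had a median of -0.79, with 2 at least 2-fold lower. Srm, the spermidine synthase, had 492 and 503 in footprints, against 1367 and 1349 in input (log2 ratio -1.45 ± 0.045 SE, limma adjusted p = 9.5e-08). Smox, which oxidises spermine, was lower at -1.20 ± 0.22 SE, and the antizyme inhibitor Azin1 at -0.79 ± 0.051 SE. Sat1, which acetylates polyamines for export, had 209.8 and 237 in footprints, against 219 and 217 in input, and these overlapped (log2 ratio 0.03 ± 0.10 SE, limma adjusted p = 0.783). Azin2 was measured on 5 and 2 footprint reads and was not called (limma adjusted p = 0.501), but was without footprint library 2, at 0.92 (limma adjusted p = 0.0496).

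**Figure D3:**
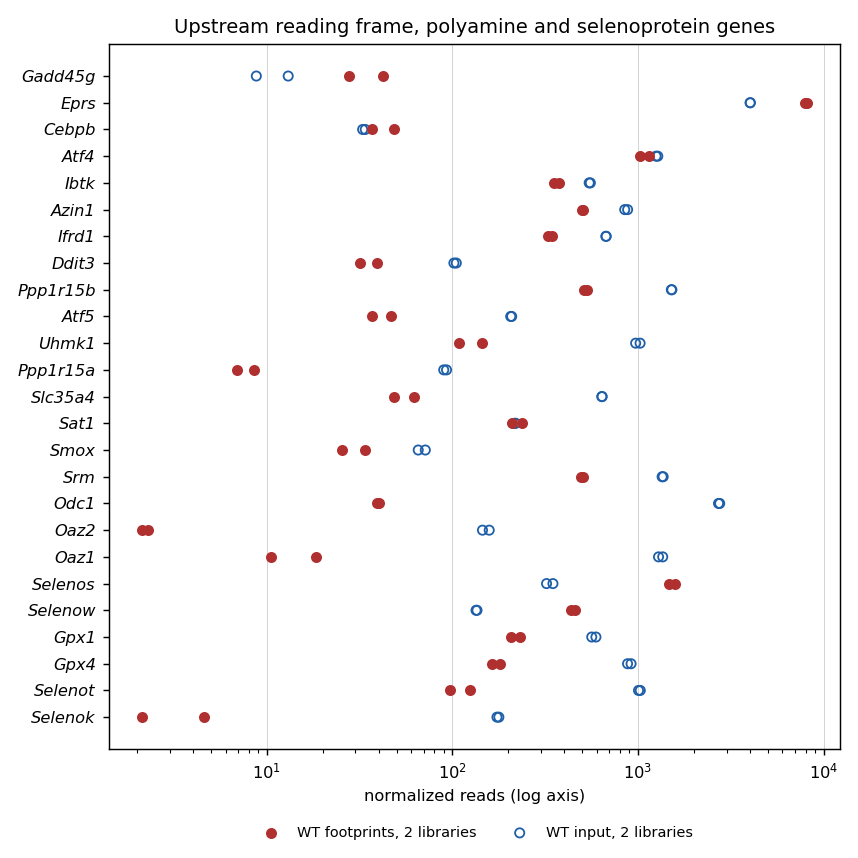
Normalized reads (horizontal, log axis) of genes with known upstream reading frames (Gadd45g to Slc35a4), polyamine genes (Sat1 to Oaz1) and selenoproteins (Selenos to Selenok), 1 filled point per WT footprint library and 1 open point per WT input library. The selenoproteins are a choice from those at least 2-fold higher or lower. Members nearer the centre are not shown, and neither is Azin2. Footprint points lie far left of input points for Odc1, Oaz1, Oaz2 and Selenok, and right of them for Selenos, Selenow, Eprs and Gadd45g.

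Ferritin genes, whose mRNAs carry an iron-responsive element that iron regulatory proteins bind when iron is low, differed from each other. Ftl1, the light chain, had 121 and 89.7 normalized reads in the footprint libraries, against 13597 and 14049.7 in the input libraries (log2 ratio -7.04 ± 0.12 SE, limma adjusted p = 4.8e-09), and has 2 named pseudogenes. Fth1, the heavy chain, had 6424 and 6531 in footprints, against 6503 and 6434 in input, which overlapped (log2 ratio 0.0020 ± 0.018 SE, limma adjusted p = 0.923), but with libraries scaled to equal sums it was called lower, at -0.19 (limma adjusted p = 4.1e-05). Tfrc, the transferrin receptor, whose elements lie beyond the reading frame and govern its stability, was at 0.18 ± 0.033 SE (limma adjusted p = 0.0015), a call lost in limma without its variance trend (adjusted p = 0.063) and, at -0.0094, when libraries were scaled to equal sums (limma adjusted p = 0.804). The iron transporter Slc11a2 was at 0.16, a call that edgeR did not make (adjusted p = 0.068). It was also lost without input library 1, at 0.15 (limma adjusted p = 0.224), and without input library 2, at 0.18 (limma adjusted p = 0.166). Cdc14a was at -0.93 ± 0.16 SE, and Epas1 and Slc40a1 were not called, at 0.07 ± 0.13 and 0.72 ± 0.34 SE. Leaving out footprint library 1 made Slc40a1 a call, at 0.77 (limma adjusted p = 0.038). The list as a whole had 0 of 8 at least 2-fold higher by limma (also 0 by edgeR and 0 at an unadjusted p under 0.05) and 1 lower, with a median of 0.09.

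Selenoproteins, which recode a stop codon to selenocysteine, spanned a wide range. Of 18 measured, 2 were at least 2-fold higher and 6 lower, with a median of -0.28, and the 11 with neither a named pseudogene nor an overlapping gene had a median of 0.52. Selenos, of the ER degradation machinery, had 1477 and 1575 normalized reads in the footprint libraries, against 322 and 348 in the input libraries (log2 ratio 2.19 ± 0.061 SE, limma adjusted p = 5.5e-08). Selenow had 459.9 and 437 in footprints, against 134 and 136 in input (log2 ratio 1.73 ± 0.085 SE, limma adjusted p = 1.0e-06). The glutathione peroxidases were low. Gpx4, which detoxifies lipid peroxides, had 163 and 182 in footprints, against 918 and 879 in input (log2 ratio -2.38 ± 0.078 SE, limma adjusted p = 1.2e-07), and Gpx1 had 208 and 232, against 563 and 593 in input (log2 ratio -1.39 ± 0.082 SE, limma adjusted p = 2.7e-06). Gpx4 has 2 named pseudogenes and Gpx1 has 0. Sephs2, which makes the selenium donor and is itself a selenoprotein, was at -3.13, Selenot at -3.20 and Selenon at -1.60. Selenok had 1 and 2 footprint reads, against 446 and 360 input reads and 8 named pseudogenes, with a counting interval of -8.01 to -4.18. The thioredoxin reductases ran from Txnrd1 at -0.62 through Txnrd2 at 0.22 to Txnrd3 at 0.83, where the call of Txnrd2 was lost in edgeR (adjusted p = 0.072), without input library 1 at 0.16 (limma adjusted p = 0.389) and without input library 2 at 0.28 (limma adjusted p = 0.144). Selenoh was called lower, at -0.54, a call lost in limma without its variance trend (adjusted p = 0.082), and Selenof, Selenoi and Selenom higher, at 0.52, 0.51 and 0.76. Selenop and Msrb1 were called at -0.46 and 0.61 but not without input library 1, at -0.55 and 0.52 (limma adjusted p = 0.103 and 0.102), nor was Selenop without input library 2, at -0.37 (limma adjusted p = 0.286). Selenoo was not called, at -0.09, but was without footprint library 2, at -0.18 (limma adjusted p = 0.032).

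Chromatin regulators leaned low. Of 66 chromatin regulators, 23 were at least 2-fold lower (34.8%) and 4 higher (6.06%), with a median of -0.65. Kmt2a, which methylates histone H3 lysine 4, had 206 and 168 normalized reads in the footprint libraries, against 1223 and 1302 in the input libraries (log2 ratio -2.76 ± 0.10 SE, limma adjusted p = 2.0e-07). Tet3, which oxidises methylated cytosine, was at -2.42 ± 0.059 SE. On the other side Kdm5b, which removes the lysine 4 mark, had 375 and 349 in footprints, against 91.8 and 89.8 in input (log2 ratio 1.98 ± 0.10 SE, limma adjusted p = 1.2e-06), and the deacetylase gene Hdac2 was at 1.26. Kdm5b overlaps another coding gene. Immediate early genes had 5 of 19 at least 2-fold lower (26.3%, against 22.4% of all genes) and 1 higher, with a median of -0.40. They ran from Srf at -2.89 and Zfp36l2 at -1.81 to Myc at 0.71 and Ier3 at 0.88. Cyclins and their kinases split, with 7 of 33 at least 2-fold higher and 8 lower, from Ccni at -4.28 and the inhibitor Cdkn2c at -3.97 to Ccnb2 at 1.68 and Cdk5 at 2.19.

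Genes were also grouped by the letters that open their symbol, a grouping chosen after values were seen, and 70 such groups had at least 15 genes. Next to the histones, the Tspan genes of tetraspanin membrane proteins had the highest median (1.05, with 8 of 15 at least 2-fold higher), followed by Nudt at 0.75 and Mrps at 0.70. Lowest after the Rpl and Rps genes were the Zbtb genes (median -1.14, with 18 of 35 at least 2-fold lower), which encode zinc finger proteins with a BTB domain. The Zdhhc genes of palmitoyltransferases had a median of -0.98 and the 286 Zfp zinc finger genes one of -0.86, with 119 at least 2-fold lower and 18 higher. Few of these have a named pseudogene, 0 of 35 Zbtb, 0 of 19 Zdhhc and 3 of 286 Zfp genes. The medians of members with neither such a pseudogene nor an overlap were -1.52 for Zbtb, -0.52 for Zdhhc and -0.76 for Zfp genes, against -2.42 for Rpl and 0.29 for Rps genes. At the high end they were 0.96 for Tspan, 0.49 for Nudt and 0.70 for Mrps genes, so Nudt then lay below Mrps.

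The remaining lists mixed both directions, with medians from -0.22 for receptor tyrosine kinases to 0.50 for nuclear pore proteins. Translation initiation factors had 11 of 38 at least 2-fold higher (28.9%) and 10 lower (26.3%), with a median of 0.41. Eif3i at 2.29 and Eif3g at 2.12 were at the top, and Eif1 and Eif2s3x, at -7.69 and -5.78, at the bottom. Eif1 rests on 7 and 6 footprint reads and has 3 named pseudogenes, and Eif2s3x rests on 15 and 10 and has 1. Ribosome biogenesis factors had 8 of 57 higher and 5 lower, from Fbl, the methyltransferase of rRNA ribose, at -4.30 to Nip7 at 1.76. Fbl has 1 named pseudogene. SR proteins and hnRNPs had 6 of 33 higher and 5 lower, from Hnrnpa3 at -7.24 to Pcbp1 at 1.76. Actins, tubulins and their partners had 8 of 36 higher and 11 lower, nuclear pore proteins 6 of 26 higher and 4 lower, cholesterol genes 4 of 25 in each direction and receptor tyrosine kinases 2 of 19 in each direction. Insr, the insulin receptor, was at 0.81 ± 0.10 SE and its relative Igf1r at -0.93 ± 0.16 SE (limma adjusted p = 0.00014 and 0.00097).

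**Figure D4:**
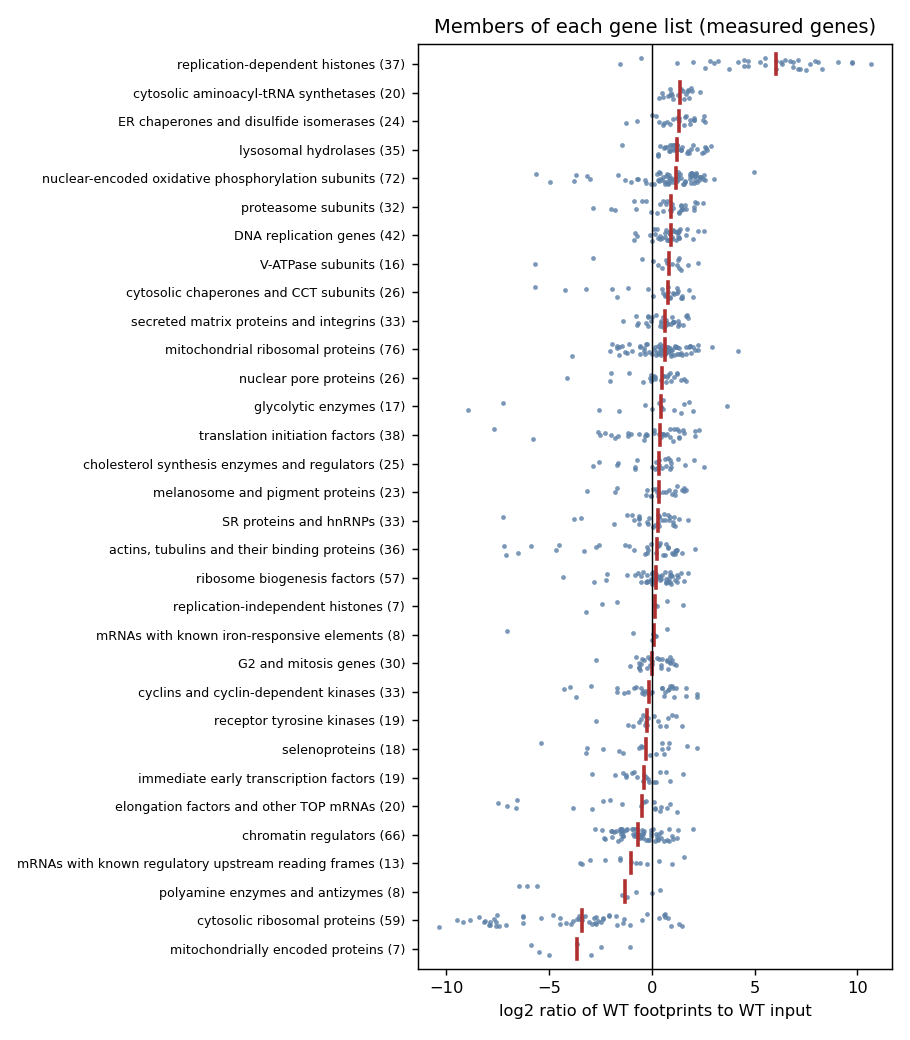
Log2 ratio of WT footprints to WT input (horizontal) of every measured member of each gene list, 1 point per gene, with the list's median as a red bar and the median of all genes as a black line. Replication-dependent histones (median 6.05) stand alone at the high end, and ribosomal proteins (-3.41) and mitochondrially encoded proteins (-3.64) at the low end, while most lists hold members on both sides of the line.

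Leaving out members with a named pseudogene or an overlapping coding gene moved the ribosomal proteins most, and several other lists as well. Selenoproteins changed side, with a median of 0.52 for the 11 of 18 that remained, in place of -0.28. Polyamine genes moved to -0.79 (5 of 8 remained) from -1.32. Genes with upstream reading frames moved to -0.59 (9 of 13 remained) from -1.0. Of the ribosomal proteins 15 of 59 remained, with a median of -0.46 in place of -3.41. The median of the 26 remaining proteasome subunits was 1.34 in place of 0.95, and that of the 17 remaining ER chaperones 1.04 in place of 1.32. Histones (6.04), aminoacyl-tRNA synthetases (1.48), lysosomal hydrolases (1.43), oxidative phosphorylation subunits (1.26), DNA replication genes (0.94) and chromatin regulators (-0.65) kept their side. Some other genes given with values above also overlap another coding gene, namely Mettl5, Aars, Wars, Pdia3, Pdia6, Rfc4, Ndufa1, Cct8, Cdk5, Ccni, Smox, Selenop, Selenoo, Txnrd1 and Txnrd2. Genes in short genomic spans had slightly higher ratios, with medians of 0.22, 0.069, 0.070, -0.035 and -0.25 over 5 equal groups from the shortest to the longest, and Spearman's rho across 10417 genes was -0.117, a description in which genes are not independent.

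**Figure D5:**
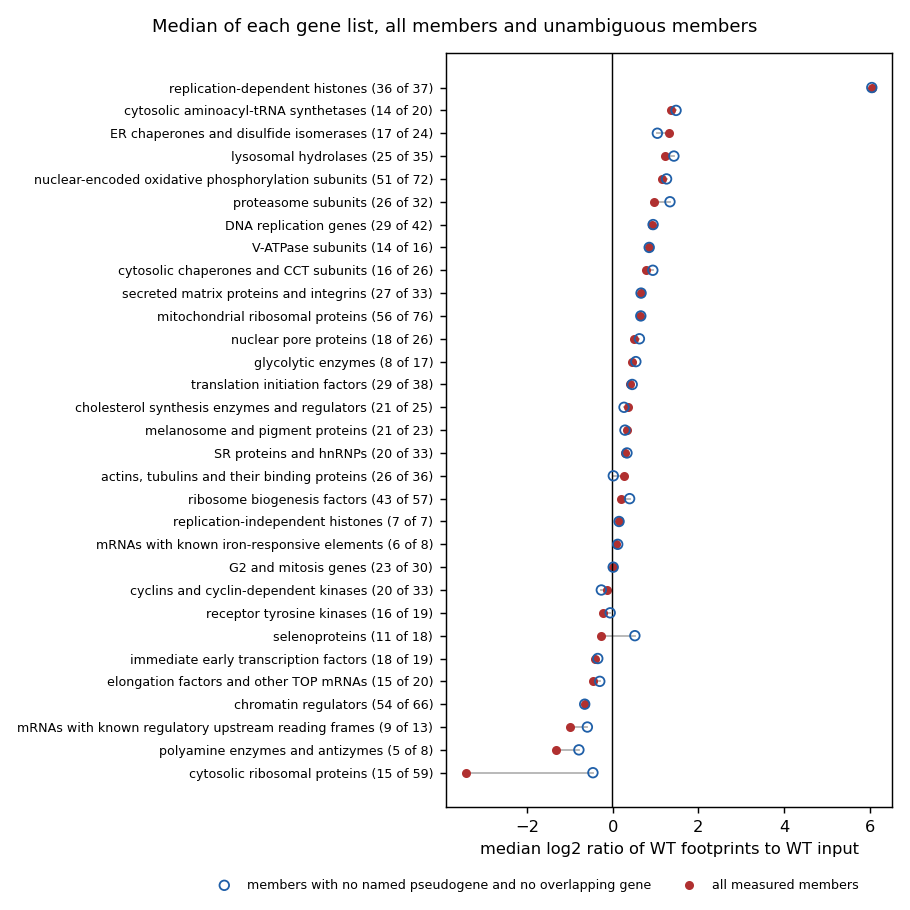
Median log2 ratio of WT footprints to WT input of each gene list, for all measured members (filled) and for those with neither a named pseudogene nor an overlapping coding gene (open), with the number of the second kind of the first in brackets. Cytosolic ribosomal proteins lie at -0.46 without such members, against -3.41 with them, and selenoproteins at 0.52, against -0.28, while histones, aminoacyl-tRNA synthetases and chromatin regulators lie at nearly the same place in both.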

How the data were processed

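Libraries came from WT B16 cells, 2 of ribosome footprints and 2 of input RNA. The authors deposited, per gene, reads divided by 1 factor per library, treated here as a signal. They also deposited a log2 fold change between genotypes and its p-value, which were not used. Per the submitters' processing notes, Bowtie (version not given) and build mm10 were named, without a role. Not given in the sources used here are the counter, its annotation, any selection by read length, strand and the handling of reads that match several places, and reads of near-identical or overlapping genes may therefore be shared or lost. From the values, 1 read is worth 2.12 and 2.30 in the footprint libraries, against 0.399 and 0.483 in input, and 100% of values are whole reads within 0.001 of a read.

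Footprints were compared with input by limma-trend (version 3.58.1, in R 4.3.3), on log2(value + 1), footprints minus input, unpaired, for genes with a mean of at least 1, which kept all 10453. It gives each gene 1 variance for both kinds of library. Tests were two-sided, with a threshold of 0.05 on p-values adjusted by Benjamini-Hochberg over all genes, and ratios of low genes are understated by the added 1. Counts divided by their factors were recovered as whole reads, and edgeR 4.0.16 (quasi-likelihood, TMM) called 4096 genes higher and 4313 lower on them (of 10263 tested), and DESeq2 1.42.0 called 3747 higher and 3685 lower. The fit was tested on simulated data in which few genes differed between the kinds of library. In the real data most genes were called, a setting that the simulation did not cover. Between replicates, chi-square per degree of freedom over genes was 1.13 for footprints, against 1.10 for input. Counting intervals are exact and at 95%, and cover counting error only.

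Members, gene lists and tests were chosen with earlier results of these data known. There were 36 lists, of which 35 had measured members, and no noncoding RNA of the list drawn up was among the genes. Genes named are the 15 highest and 15 lowest ratios of coding genes with a mean of at least 100, past the threshold and without overlap of libraries, leaving out predicted genes, replication-dependent histones and mitochondrial genes. To these were added the 2 highest and 2 lowest of each list with that mean, and every member of the lists of upstream frames, iron-responsive elements, polyamine genes, selenoproteins, replication-independent histones and mitochondrial genes. The rule asked for a RefSeq protein, and the RefSeq class of coding gene was used instead. A comparison with protein features was not run. Single values of some genes the rule names are not reported here, though counts over lists include them. Pseudogene names, overlaps, spans, start sites, symbol groups and genes named outside the rule were chosen after values were seen. IDs matched the name table for 10452 genes and RefSeq (GRCm38.p6) for 10417, and 16 symbols turned into dates were restored. 0 columns of samples were left unmapped.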

Additional observations from a re-analysis of the deposited data

How the results depend on the processing

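Total calls kept within 1.5 times of 8268 under every alternative run, from 7162 to 9053 when 1 library was left out and at 7432 with DESeq2. 2-fold calls ran from 1822 to 1954 higher and from 2228 to 2389 lower without 1 library, where a lone library is assumed to vary like the others. The filter at a mean of 1 removed no gene. Scaling each library to the mean library sum moved the median of all genes to -0.19, and the calls to 3465 higher and 4772 lower (1487 and 2784 at least 2-fold). This scaling was put on the deposited scale after the values were seen in place of the CPM scale first planned, so that the added 1 kept its meaning. Under it these log2 ratios changed sign: H2afy -0.042, Tfrc -0.0094, Slc11a2 -0.028, Fth1 -0.19 and Erp29 -0.16, of which Fth1 and Erp29 became calls lower in footprints (limma adjusted p = 4.1e-05 and 0.014). Calls of Msrb1, H1f0 and Txnrd2 were lost under it (limma adjusted p = 0.060, 0.455 and 0.780) and Selenoo became one (0.030). Limma without its variance trend lost the calls of H2afy (0.091), Slc11a2 (0.077) and Txnrd2 (0.051) and made one of Slc40a1 (0.014), and DESeq2 lost those of H2afy (0.066), Slc11a2 (0.179), Selenop (0.121) and Txnrd2 (0.215). The cause of the changes of sign was not tested beyond the shift itself, which is as large as these ratios. Of the lists, 8 had a median at least 1 from that of all genes, and 6 to 9 did under the alternatives. The 6 came when genes with a named pseudogene or an overlap were left out, a choice made after seeing the data. That choice moved the ribosomal protein median by 2.93. It also left out the 36 genes not matched to RefSeq. Among them are all 7 mitochondrially encoded genes measured, so their list has no median there. Replicate numbers were not shown to pair the libraries, since differences between replicates of the 2 kinds correlated at -0.0055 and no label says that they pair, and a replicate block called 8315 genes (4123 higher, 4192 lower). Depth limits the low end: 94 of the 347 genes at least 8-fold lower have under 10 footprint reads, and 31 of the 91 at least 8-fold higher have under 50 input reads, summed over libraries.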
